A study of Mus musculus with 5 samples.

Results

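Cdx2-positive N-cadherin-positive cells were examined in single-cell RNA sequencing data of mouse epiblast stem cells (EpiSCs), pluripotent cells that correspond to the epiblast after implantation, on the way to mesoderm. The members were chosen by their counts of unique molecular identifiers (UMIs, which count RNA molecules) for 5 genes. A member had at least 3 UMIs of Cdx2, at least 1 UMI of Cdh2 (N-cadherin), no UMI of Cdh1 (E-cadherin), at most 7 UMIs of T (Brachyury) and at most 1 UMI of Tbx6. Among 8952 cells kept in the libraries of the FGF2 dose series, 1797 were members, and 7155 were other cells. The whole series held 10653 kept cells in 5 libraries, and the library with the FGF receptor inhibitor AZD4547 did not enter the gate.

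All cells were of a wild-type EpiSC line, which is a single line, and all were differentiated for 3 days in N2B27 medium with 1 µM of the Wnt agonist CHIR99021 and 8 ng/ml BMP4. The groups differed in FGF2, which was left out or given at 0.75, 3 or 12 ng/ml. There was 1 library per dose, so that dose and library cannot be told apart. No test between single doses was therefore possible, a trend along the doses was not tested, and no p-value is given. Because the members were picked from the counts of the same cells, no test was run between members and other cells either. Intervals are 95% intervals that cover counting error only, and they are exact except for that of the change in share.

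Cdx2 is a homeodomain transcription factor of the posterior embryo. It is known for opening the way to posterior Hox gene expression, and it is active in the primitive streak, the caudal epiblast, the mesoderm that leaves it and the trophectoderm. N-cadherin replaces E-cadherin when epiblast cells undergo the epithelial-to-mesenchymal transition (EMT) and become mesoderm, but neural cells make it too. Caudal epiblast contains neuromesodermal precursors, which express Cdx2, T, Sox2 and Nkx1-2 and feed both spinal cord and paraxial mesoderm in a setting of FGF and Wnt signaling.

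The members made up 17.9% of the kept cells without FGF2 (303 of 1696 cells, interval 16.1% to 19.8%). At 0.75 ng/ml they made up 24.1% (657 of 2725 cells, 22.5% to 25.8%). With 3 ng/ml the share was 21.6% (459 of 2125 cells, 19.9% to 23.4%), and with 12 ng/ml it was 15.7% (378 of 2406 cells, 14.3% to 17.2%). The share was thus higher at the intermediate doses than at both ends. The change from no FGF2 to 12 ng/ml was -2.15 percentage points, with an interval from -4.51 to 0.156 that includes no difference. The order of the shares along the doses differed in thinned cells. The gate counts raw UMIs, so thinning changes the counts of all gate genes at once. When each cell was thinned to 10000 UMIs, the shares were 7.86%, 12.5%, 15.2% and 13.2% along the doses, and the change from no FGF2 to 12 ng/ml was 5.32 points. In full cells with at most 3 T UMIs, the shares were 15.3%, 18.3%, 14.5% and 8.65%, so that 3 ng/ml was below no FGF2. The share was lowest without FGF2 in thinned cells and lowest at 12 ng/ml in full cells, and no direction between these ends is read from it.

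**Figure D1:**
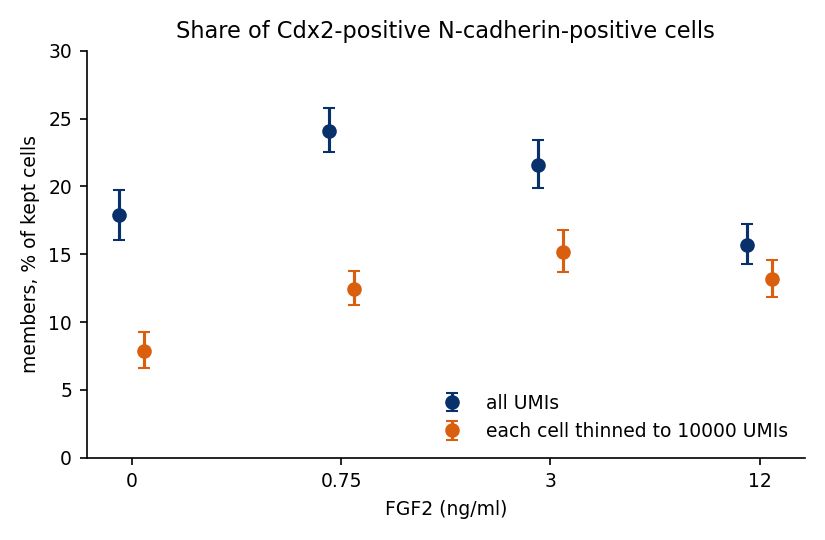
Share of Cdx2-positive N-cadherin-positive cells among the kept cells (y axis, percent) by FGF2 dose (x axis, ng/ml, evenly spaced categories), with all UMIs (blue) and after thinning each cell to 10000 UMIs (orange); bars are exact 95% binomial intervals and each point is 1 library. With all UMIs the share peaks at 0.75 ng/ml (24.1%), whereas in thinned cells it is lowest without FGF2 (7.86%) and highest at 3 ng/ml (15.2%).

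The values of the gate genes follow from the gate and are given as a description. Cdx2 in members was at 240, 265, 275 and 251 CPM (UMIs of the gene in every 1000000 UMIs summed over the cells) along the doses, and Cdh2 at 128, 139, 143 and 152 CPM. The median member had 6 or 7 UMIs of Cdx2. T in members was at 46.7, 72.8, 91.1 and 116 CPM and Tbx6 at 3.63, 4.85, 9.18 and 12.2 CPM, so that both were higher at each higher dose within the limits of the gate. At the borders of the gate, 214 members had exactly 3 Cdx2 UMIs and 179 cells failed the gate only by having 2. Further, 89 members had 7 T UMIs against 68 cells that missed by 1, 368 members had 1 Tbx6 UMI against 251 cells with 2, and 294 members had 1 Cdh2 UMI against 256 cells with none. A single Cdh1 UMI kept out 274 cells.

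Depth and RNA quality were close in members and in other cells. The median member had 28838, 27389, 26893 and 25889 UMIs along the doses, and the median other cell had 29934, 27639, 29105 and 27751 UMIs. The median share of mitochondrial UMIs in members was 4.20%, 4.05%, 4.31% and 4.20%, against 4.10%, 3.94%, 4.15% and 4.12% in other cells. Between any pair of libraries at most 3 deposited and 2 kept barcodes were shared.

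The label of caudal mesoderm-like cells was checked against markers, and the data bore it out in part. The posterior Hox genes and Evx1 were present, and 6 of 8 markers other than the gate genes were detected above 1 CPM. The related caudal factors Cdx1 and Cdx4, however, did not exceed 0.213 and 0.0784 CPM in members of any library. Markers of other cell types were present in part. Of 6 markers of lateral and extraembryonic mesoderm, Gata4 and Tbx4 stayed at or below 1 CPM, but the 6 summed to 78.0, 48.6, 47.0 and 71.8 CPM in members along the doses and to 98.5, 55.1, 43.7 and 39.3 CPM in other cells. Hand1 was the most abundant of them, with 28.6 to 50.5 CPM and a UMI in 25.9% to 38.6% of members, and at 3 and 12 ng/ml the sum was higher in members than in other cells. A longer list of 17 such genes summed lower in members at each dose, to 279, 142, 129 and 165 CPM against 1365, 485, 228 and 247 CPM. Of 5 tested, none was called higher and 2 were called lower (2.28% of all genes tested were lower). Of these 5, 3 reached 20 CPM in all libraries in other cells only. Of 4 markers of blood and endothelial precursors, Kdr and Tal1 stayed at or below 1 CPM, and the 4 summed to 13.2, 17.1, 18.6 and 33.0 CPM in members, nearly all of it from Lmo2. Results without the members that had a Hand1 UMI are given with the split by Hand1, and the part of other such cells was not tested. Pax6 of the neural tube and Foxa2 and Sox17 of the endoderm were at or below 1 CPM in members as well. Sox2, which mesoderm switches off, had a UMI in 51.5%, 45.5%, 41.0% and 28.6% of members along the doses. The shares were 62.5% (of only 16 cells), 49.3%, 42.3% and 41.4% in T-high cells (at least 8 T UMIs, no Cdh1 UMI and at most 1 Tbx6 UMI). They were 42.9%, 50.1%, 55.4% and 51.2% in Cdx2-positive E-cadherin-positive cells, so that Sox2 was found in these populations too. In the Tbx6-positive cells, a paraxial population, the shares were 27.3%, 15.9%, 18.5% and 15.1%, with median depths of 33401, 28305, 29674 and 27278 UMIs. At 10000 UMIs per cell, the shares with Sox2 were 30.3%, 27.1%, 23.0% and 17.5% in members and 13.6%, 6.35%, 7.27% and 6.55% in Tbx6-positive cells. The population is therefore called by its gate here.

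The members were next compared with the other kept cells of the same library. A gene was tested if it reached 20 CPM in members or in other cells in every one of the 4 libraries, and it was called when the ratio was at least 1.5 in the same direction in all 4. Of 5605 genes tested, 18 (0.321%) were higher and 128 (2.28%) were lower in members. By geometric mean ratio, the first of the higher genes were Epha5, Zbtb16, Car14, Greb1 and Hoxc4, and the first of the lower genes were Mt2, Krt19, Krt8, Hspb1 and Krt18.

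Epha5 encodes a receptor tyrosine kinase for ephrin-A ligands and is a gene of the caudal epiblast (chr5:84054761-84417382 on GRCm38, minus strand). It was at 45.6, 60.3, 69.9 and 45.8 CPM in members along the doses and at 6.30, 12.9, 16.7 and 11.8 CPM in other cells. In every library the members were far above the other cells, and the ratio was 7.23 (6.22 to 8.41) without FGF2 and 3.87 (3.44 to 4.35) at 12 ng/ml. The geometric mean ratio of the 4 libraries was 4.84, and the SD of the log2 ratios was 0.40. Epha5 reached 20 CPM in members only, so that this difference was in part set by the level limit. A UMI of Epha5 was found in 40.6%, 51.6%, 54.5% and 35.7% of members, against 14.3%, 17.5%, 25.1% and 20.2% of Cdx2-positive cells that had E-cadherin and no N-cadherin.

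The other non-Hox genes higher in members had various roles. Zbtb16 (Plzf), a zinc finger repressor of progenitor cells, was at 33.2, 36.8, 37.7 and 27.7 CPM in members and at 7.15, 11.9, 17.3 and 12.6 CPM in other cells. Greb1, a growth regulator first known as an estrogen target, was at 157, 177, 171 and 134 CPM against 38.7, 59.3, 83.4 and 71.3 CPM. In members both genes were lowest at 12 ng/ml, whereas in the other cells their levels were lowest without FGF2. Car14, a membrane carbonic anhydrase, had a geometric mean ratio of 2.69 (SD of log2 ratios 0.74), and Mllt3, a subunit of the super elongation complex, 2.01. The ubiquitin ligase gene Trim2 was at 62.0, 67.1, 55.5 and 39.9 CPM against 22.2, 31.5, 33.2 and 24.8 CPM. Crb2, a polarity gene needed for cells to leave the primitive streak, was at 32.7, 31.99, 30.9 and 32.4 CPM in members and at 15.3, 16.1, 19.98 and 19.5 CPM in other cells, with a geometric mean ratio of 1.82. The fibrillin gene Fbn2, the kinase regulatory subunit gene Prkar2b and the unnamed locus Gm45889 completed the non-Hox genes. Zbtb16, Car14, Crb2, Fbn2 and Prkar2b reached 20 CPM in all libraries in members only. Their difference was thus in part set by the level limit. Greb1, Mllt3, Trim2 and Gm45889 reached it in both members and other cells.

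**Figure D2:**
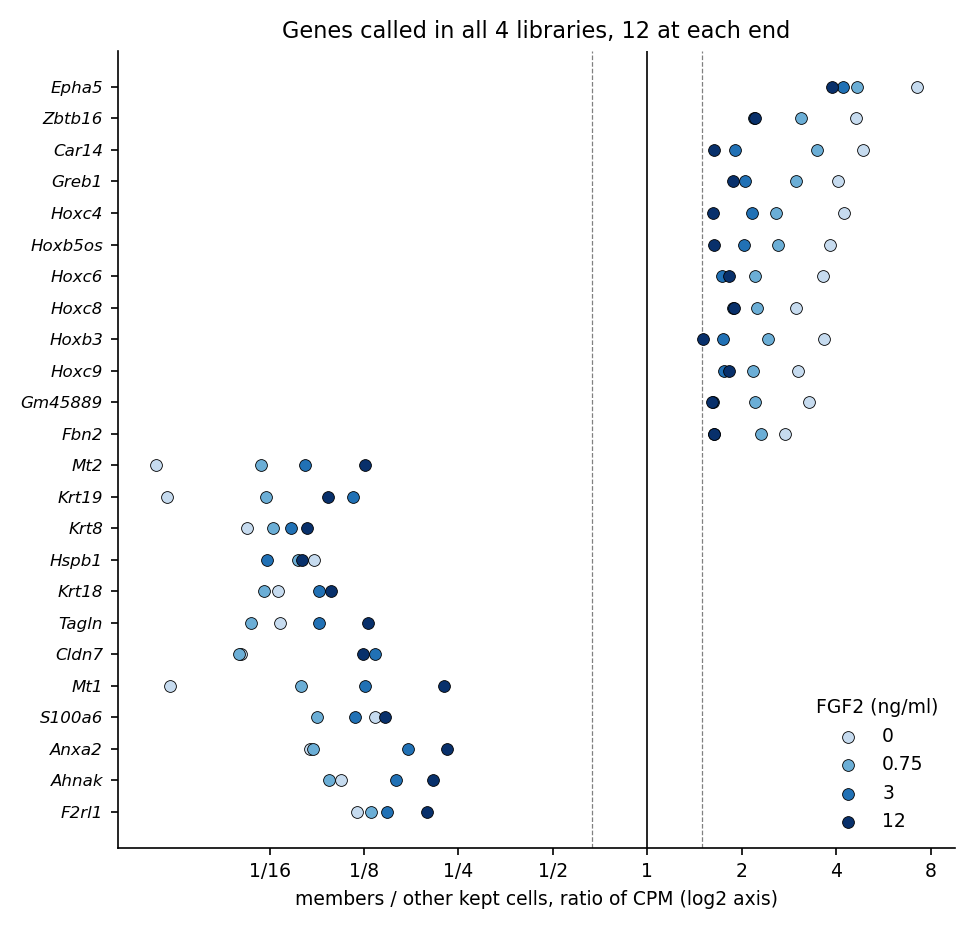
Ratio of CPM in members to CPM in the other kept cells of the same library (x axis, log2 scale) for the 12 called genes with the largest and the 12 with the smallest geometric mean ratio (y axis); points are coloured by FGF2 dose, 1 library each, and dashed lines mark ratios of 1.5 in either direction. For each of the 12 higher genes the largest ratio is that of the library without FGF2, as for Epha5 (7.23 without FGF2 and 3.87 at 12 ng/ml), and all points of the lower genes lie below a ratio of 1/4, as for Krt8 (0.0530 to 0.0821).

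Hox genes encode homeodomain factors that set position along the body axis, with the low-numbered genes anterior and the high-numbered genes posterior. Of 39 Hox genes in the 4 clusters, 18 were tested and 7 were called higher in members, against 0.321% of all genes tested. These were Hoxa7, Hoxa9, Hoxb3, Hoxc4, Hoxc6, Hoxc8 and Hoxc9, and none was lower. Apart from Hoxc4, the called genes were among 13 that reached 20 CPM in both members and other cells, whereas Hoxc4 and 4 that were not called reached it in all libraries in members only. In 17 of 18 the ratio was above 1 in all 4 libraries, against 37.4% of all genes tested, and the median log2 ratio was 0.90 against 0.03 over all genes tested.

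Hoxc8, of the thoracic region, was at 235, 261, 258 and 212 CPM in members and at 78.7, 117, 138 and 113 CPM in other cells. Hoxc9 was at 197, 187, 159 and 134 CPM against 65.0, 85.8, 90.9 and 73.5 CPM, and Hoxc4 at 64.2, 68.2, 73.7 and 49.7 CPM against 15.1, 26.5, 34.2 and 30.6 CPM. In these genes the members exceeded the other cells at each dose, and the gap was largest without FGF2. Hoxb9 was at 378, 419, 391 and 317 CPM against 105, 189, 235 and 213 CPM and missed the call at 12 ng/ml, and a UMI of it was found in 95.4% to 98.5% of members. Hoxd9 was at 124, 113, 132 and 152 CPM against 68.0, 97.9, 132 and 141 CPM and did not differ between members and other cells at 3 ng/ml. Hoxb5os, an RNA from the opposite strand next to Hoxb5, was at 267, 260, 228 and 168 CPM in members and at 69.8, 99.6, 112 and 103 CPM in other cells.

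Transcripts of Hoxc4, Hoxc5 and Hoxc6, of Hoxb3 and Hoxb4, and of Hoxa9 and Hoxa10 overlap, so the assignment of reads between such neighbours is uncertain, as it is for Hoxb5os and Hoxb5. The most posterior genes tested or near the limit had another course along the doses. Hoxc10 was at 41.8, 21.5, 18.3 and 44.1 CPM in members, and Hoxd11 at 11.3, 5.54, 4.001 and 21.0 CPM, both higher at the 2 ends of the dose series than in the middle. Hoxa10 was at 46.9, 29.6, 22.7 and 33.8 CPM and had the same order of ends and middle. In other cells Hoxc10 ranged from 9.02 to 12.2 CPM.

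**Figure D3:**
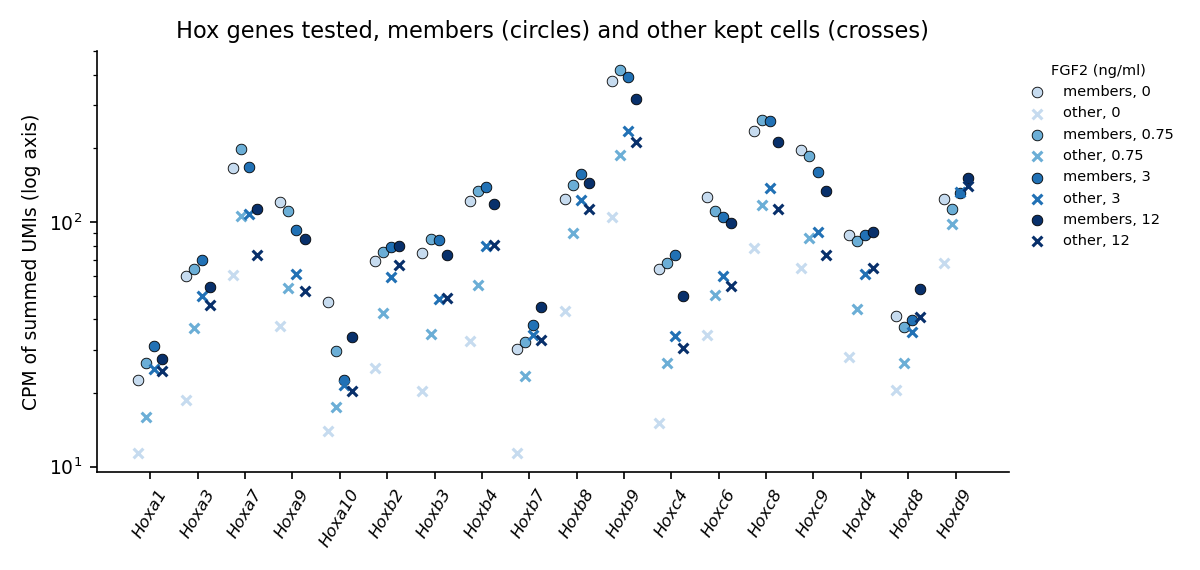
Levels (y axis, CPM of summed UMIs, log scale) of the 18 Hox genes tested (x axis) in members (circles) and in the other kept cells (crosses), coloured by FGF2 dose, 1 library each. Circles lie above crosses of the same dose in 17 of the genes, most widely without FGF2, and Hoxd9 at 3 ng/ml is the exception.

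Sequences upstream of RefSeq starts of called Hox genes are shown. These genes were higher together in cells gated for CDX2, a factor whose sites share the letters TTTAT. The promoter table of RefSeq (GRCm38.p6) held 3 of the 7, and the 250 bases before each start are given 5′ to 3′ on the strand of the gene, with TTTAT and its reverse complement ATAAA in capitals. The window of Hoxa7 is chr6:52218574-52218823 (minus strand), that of Hoxa9 chr6:52227371-52227620 (minus strand) and that of Hoxc4 chr15:103034145-103034394 (plus strand). Each window lies inside the span that GENCODE gives for its gene, so that it precedes a start within that span.
Hoxa7: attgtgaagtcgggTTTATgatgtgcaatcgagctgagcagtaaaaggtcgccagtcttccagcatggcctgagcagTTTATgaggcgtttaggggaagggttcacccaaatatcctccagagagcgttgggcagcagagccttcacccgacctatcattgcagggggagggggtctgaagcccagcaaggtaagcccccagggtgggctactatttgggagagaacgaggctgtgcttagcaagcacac
Hoxa9: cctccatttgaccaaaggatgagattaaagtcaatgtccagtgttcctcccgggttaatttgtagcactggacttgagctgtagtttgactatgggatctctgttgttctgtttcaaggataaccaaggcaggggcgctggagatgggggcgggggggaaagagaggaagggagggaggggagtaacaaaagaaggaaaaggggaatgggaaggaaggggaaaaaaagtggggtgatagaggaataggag
Hoxc4: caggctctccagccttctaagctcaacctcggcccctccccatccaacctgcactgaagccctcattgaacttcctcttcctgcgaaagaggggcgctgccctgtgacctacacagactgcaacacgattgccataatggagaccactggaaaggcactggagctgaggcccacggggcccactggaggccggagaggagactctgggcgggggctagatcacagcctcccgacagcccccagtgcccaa

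TTTAT was found 2 times in the window of Hoxa7 and was not in the windows of Hoxa9 and Hoxc4, also as ATAAA. These 5 letters stood in 37.3% of all 32851 promoters of the table and in 22.6% of the promoters of the genes tested. Of the longer CDX-like letters TTTATTG and TTTATGG, searched on both strands, there was a match in 1 of the 18 promoters that the table holds for 11 of the called genes (that of Mllt3), or 5.56%, against 6.51% of all promoters and 3.97% of those of the genes tested. The letters CTTTGAT and CTTTGAA of TCF/LEF factors likewise stood in 1 of these 18 promoters, against 7.48% of all and 5.15% of those of the genes tested. This is a count of letters in these windows and says nothing about binding.

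In the list of caudal epiblast and neuromesodermal precursor genes, 9 of 12 genes were tested and 1 (Epha5) was called higher than in other cells, where 0.321% of all genes tested were called. Of the 9, 6 (Epha5 among them) reached 20 CPM in all libraries in members only, so that their difference was in part set by the level limit. The 2 that reached it in both (Grsf1 and Gdf11) were not called. Against the T-high cells described further on, none of 9 was higher in members, and Fgf8 and Grsf1 were lower, where 0.913% of all genes tested were lower. The list was drawn up with results of these cells known. Cyp26a1, which degrades retinoic acid, was at 34.1, 40.5, 45.2 and 53.6 CPM in members and at 5.19, 14.7, 33.6 and 35.1 CPM in other cells. Nkx1-2, a transcription factor of the caudal lateral epiblast, was at 30.7, 33.0, 36.3 and 21.8 CPM against 6.66, 18.5, 27.6 and 20.8 CPM. Fgf17 was at 37.6, 46.2, 65.4 and 57.2 CPM against 9.65, 20.4, 46.7 and 47.4 CPM. For these 3 genes the members were furthest above the other cells without FGF2, and all 3 were less than 1.5-fold apart at 3 ng/ml. At 12 ng/ml this held for Nkx1-2 and Fgf17, whereas Cyp26a1 was 1.53-fold higher in members. Sox2 had the opposite course to Cyp26a1 along the doses, with 48.0, 39.7, 30.7 and 19.6 CPM in members.

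Of the presomitic genes, 2 passed the level limit. Rspo3 reached 20 CPM in all libraries in both members and other cells, and Hes7 in members only. The difference of Hes7 was thus in part set by the level limit. Rspo3, a Wnt amplifier, was at 234, 328, 397 and 441 CPM in members and at 65.3, 183, 414 and 430 CPM in other cells. Hes7, the segmentation clock repressor, was at 77.0, 97.8, 118 and 96.3 CPM against 19.9, 43.5, 86.4 and 103 CPM. In both genes the ratio passed 1.5 only without FGF2 and at 0.75 ng/ml. Dll1, a Notch ligand of the presomitic mesoderm, was at 11.9, 15.1, 29.2 and 41.5 CPM in members and at 8.20, 21.5, 51.2 and 71.8 CPM in other cells.

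Epithelial genes were among the lower genes. Of 17 genes of surface ectoderm, extraembryonic ectoderm and epithelium, 9 were tested. Of these, Krt19, Cldn7, Esrp1, Tfap2c and Wnt6 reached 20 CPM in all libraries in other cells only, so that their difference was in part set by the level limit. The 4 that reached it in both (Epcam, Krt8, Krt18 and Cldn6) were called lower, against 2.28% of all genes tested. Cdh1 was at 0 in members by the gate, so that loss of other epithelial genes goes with what the gate chose. Krt8 was at 51.7, 49.0, 29.3 and 31.1 CPM in members and at 976, 764, 399 and 379 CPM in other cells, and Krt18, its keratin partner, at 85.1, 50.7, 34.5 and 34.4 CPM against 1279, 843, 385 and 351 CPM. Epcam was at 65.5, 65.5, 79.3 and 80.7 CPM against 384, 406, 269 and 241 CPM. A UMI of Epcam was found in 44.9% to 49.7% of members, compared with 99.5% to 99.7% of Cdx2-positive E-cadherin-positive cells and 20.6% to 34.3% of Tbx6-positive cells. Thinned to 10000 UMIs per cell, the shares were 30.0% to 36.4% in members and 8.47% to 18.8% in Tbx6-positive cells, and how much of either is free RNA was not tested.

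The smallest ratio among the called genes was that of a metallothionein, and the next were those of Krt19 (0.0666) and Krt8 (0.0673). Mt2, which binds metal ions, was at 8.75, 14.3, 7.22 and 6.76 CPM in members and at 323, 244, 89.2 and 53.6 CPM in other cells, a geometric mean ratio of 0.0634. Mt1 had a geometric mean ratio of 0.0905 and the small heat shock protein gene Hspb1 0.0755. Tagln (transgelin), an actin-binding protein of smooth muscle, was at 38.1, 7.30, 2.51 and 6.18 CPM in members and at 564, 134, 27.9 and 48.1 CPM in other cells. Ahnak, a large scaffold protein, was at 38.7, 16.7, 10.8 and 15.1 CPM against 367, 173, 68.3 and 72.7 CPM. Genes such as Krt19, Mt2, Mt1, Hspb1, Tagln and Ahnak reached 20 CPM in all libraries in other cells only. Their difference was thus in part set by the level limit. S100a6, Anxa2 and F2rl1, genes of calcium binding, membrane binding and protease signaling, had geometric mean ratios of 0.120, 0.130 and 0.146. They too reached 20 CPM in all libraries in other cells only, so that their difference was likewise in part set by the level limit.

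The members differed from the other cells more without FGF2 than with it. Counted in each library alone, 347 genes (6.19%) were higher and 544 (9.71%) lower without FGF2, 147 (2.62%) and 365 (6.51%) with 0.75 ng/ml, 39 (0.696%) and 203 (3.62%) with 3 ng/ml, 30 (0.535%) and 151 (2.69%) with 12 ng/ml. The other cells are themselves a mixture whose makeup moves with dose, as Tbx6-positive cells made up 3.89%, 6.94%, 18.8% and 30.5% of the kept cells along the doses. How far this mixture sets the ratios was not tested. Without the library at 12 ng/ml, 42 genes were higher in the remaining 3 libraries in place of 18.

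Signaling genes were described by list. Among 10 FGF targets, 7 were tested and none was called, and the median log2 ratio was 0.18. In 2 of the 7 the ratio was above 1 in all libraries (37.4% of all genes tested), and in 2 it was below 1. Etv4, an ETS factor induced by FGF, was at 39.0, 43.0, 55.5 and 59.1 CPM in members and at 11.4, 21.6, 36.8 and 44.2 CPM in other cells, and was thus above the other cells in each library. Etv4 reached 20 CPM in all libraries in members only, so that its difference was in part set by the level limit. Spry4, a feedback inhibitor, was at 8.75, 13.4, 17.5 and 24.8 CPM against 5.31, 13.6, 20.2 and 25.8 CPM and followed the dose in both. Of 8 BMP targets tested none was called (median log2 ratio -0.22). Id1 was at 168, 168, 174 and 158 CPM in members, with little change along the doses, and Id2 at 260, 244, 204 and 164 CPM. Of 7 Wnt targets tested none was called. Axin2, a feedback inhibitor, was at 100, 109, 105 and 82.2 CPM against 61.7, 86.6, 86.4 and 67.5 CPM.

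Among the Wnt ligands the members had a mixed pattern. Wnt5a, a noncanonical ligand of the posterior embryo, was at 131, 130, 136 and 129 CPM in members and at 68.8, 104, 125 and 112 CPM in other cells. Wnt6, a ligand of surface ectoderm, was called lower, with 18.8, 17.3, 17.8 and 14.5 CPM against 147, 132, 59.0 and 46.7 CPM. Wnt3a, the ligand of the caudal epiblast, was low in members, at 2.45, 6.56, 10.7 and 10.7 CPM. Of the retinoic acid genes, Crabp2, a binding protein, was at 216, 221, 169 and 100 CPM in members and at 78.3, 83.9, 94.3 and 77.9 CPM in other cells, and Aldh1a2, which makes retinoic acid, at 0.213, 0.267, 1.098 and 3.58 CPM.

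Of the genes of DNA replication none was called. All 10 S phase genes were tested, and 9 of 10 had a ratio above 1 in every library (37.4% of all genes tested), with a median log2 ratio of 0.30 against 0.03 over all genes tested. Pcna was at 312, 335, 318 and 287 CPM in members and at 199, 251, 263 and 256 CPM in other cells. The 10 genes of the G2/M phase had a median log2 ratio of 0.01, and none had a ratio above 1 in all libraries. In other lists few genes passed the level limit. Of 12 EMT and mesenchyme genes 5 were tested, and the galectin gene Lgals1 was called lower at 150, 147, 152 and 205 CPM against 656, 541, 476 and 594 CPM. Ifitm3, from the list of germ cell genes, was also lower, and no gene of the lists of streak, intermediate mesoderm, blood, neurectoderm or endoderm was tested.

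The Cdx2-positive cells that had E-cadherin and no N-cadherin (1433 cells) share the Cdx2 gate with the members. Against them, 209 of 5777 genes (3.62%) were higher in members and 406 (7.03%) were lower. Zeb1, a repressor of E-cadherin, was at 25.6, 22.1, 21.3 and 24.9 CPM in members and at 1.14, 1.47, 0.938 and 0.797 CPM in these cells, a geometric mean ratio of 22.1. Zeb2, its paralog, was at 34.0, 38.4, 39.1 and 39.8 CPM against 5.12, 6.29, 7.61 and 7.71 CPM. Cyp26a1 had a ratio of 24.0 (12.9 to 50.5) without FGF2 and 6.31 (4.86 to 8.30) at 12 ng/ml. Rab25, an epithelial trafficking GTPase, was at 0.534, 1.39, 2.12 and 1.16 CPM in members and at 102, 83.6, 78.6 and 64.7 CPM in the E-cadherin-positive cells, and Esrp2, an epithelial splicing regulator, and Ppl, a cornified envelope and desmosome protein, were also among the 5 lowest, as were Mt2 and the Ras effector gene Rassf4. Car14 and Fbn2 were among the 5 highest. The 5 highest genes reached 20 CPM in all libraries in members only, and the 5 lowest in the E-cadherin-positive cells only. These differences were thus in part set by the level limit. The gate separated both populations by cadherins, so that EMT and epithelial genes differ here by choice. Of 18 Hox genes tested, 9 were higher in members and none lower, and Hoxb9, Hoxc4, Hoxc6 and Hoxc8 were among them.

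T-high cells without E-cadherin (567 cells) had at least 8 T UMIs and at most 1 Tbx6 UMI. They thus shared the Cdh1 and Tbx6 limits of the members and adjoined them in T. Over all 4 libraries they differed from the members in fewer genes than either of the other populations compared. How far the shared limits set this order was not tested. Of 5477 genes, 1 (0.0183%) was higher in members and 50 (0.913%) were lower. The higher gene was Mest, an imprinted gene of embryonic mesoderm, at 86.3, 57.7, 44.9 and 33.6 CPM against 24.3, 38.1, 19.9 and 18.6 CPM. Mest reached 20 CPM in all libraries in members only, so that its difference was in part set by the level limit. Fst (follistatin), an antagonist of activin and BMP, was at 2.88, 5.86, 9.57 and 17.9 CPM in members and at 38.2, 52.7, 74.7 and 133 CPM in T-high cells. Igfbp3, an IGF-binding protein, was at 7.90, 12.5, 11.5 and 21.1 CPM against 59.0, 109, 90.2 and 130 CPM. The immunoproteasome subunit gene Psmb8 and the cornified envelope gene Sprr2a3 had ratios between those of Fst and Igfbp3. Fst, Igfbp3, Psmb8 and Sprr2a3 reached 20 CPM in all libraries in T-high cells only. Their difference was thus in part set by the level limit as well. No Hox gene was called among 19 tested. Without FGF2 there were only 16 T-high cells. When that library was left out, 98 genes differed in place of 51, of which 10 were higher and 88 lower in members. Against Tbx6-positive cells 108 genes then differed in place of 99, so that the 2 counts were close.

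Tbx6-positive cells without E-cadherin (1387 cells, at least 2 Tbx6 UMIs) stand for the neighbouring paraxial state. Against them 41 of 5540 genes (0.74%) were higher in members and 58 (1.05%) were lower. Epha5 was again higher, at 45.6, 60.3, 69.9 and 45.8 CPM against 14.0, 13.2, 8.64 and 8.56 CPM, and so was Nkx1-2, at 30.7, 33.0, 36.3 and 21.8 CPM against 3.93, 12.3, 9.21 and 6.46 CPM. Both genes reached 20 CPM in members only, so that their difference was in part set by the level limit. The glucose transporter gene Slc2a3 was at 368, 416, 357 and 285 CPM against 88.1, 102, 93.2 and 65.6 CPM, and its ratio was close to 4 in every library (3.83 to 4.35). The epithelial genes Epcam, Krt8, Krt18 and Cldn6 were higher in members than in Tbx6-positive cells, although they were lower than in the other cells as a whole. Against Tbx6-positive cells these genes reached 20 CPM in all libraries in members only. Their difference there was thus in part set by the level limit. Lower in members were Dll1, at 11.9, 15.1, 29.2 and 41.5 CPM against 108, 152, 143 and 147 CPM, the protocadherin gene Pcdh19, the Wnt antagonist gene Frzb, the semaphorin receptor gene Plxna2 and the cornified envelope gene Lor (loricrin). These lower genes reached 20 CPM in all libraries in Tbx6-positive cells only. Their difference was likewise in part set by the level limit. Of 20 Hox genes tested, 2 were higher in members (Hoxa7 and Hoxa9), and the median log2 ratio was -0.01. The ratio of Dll1 in members to that in Tbx6-positive cells was 0.110, 0.0994, 0.203 and 0.282 along the doses.

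The members were then followed along the dose of FGF2. Of 2992 genes that reached 50 CPM in members at either end, 11 (0.368%) were at least 2-fold higher at 12 ng/ml than without FGF2 and 7 (0.234%) were at least 2-fold lower. In 17 of these 18 genes the 4 libraries were ordered along the doses, with Crabp2 as the exception. Between the same ends, 10 of the 11 higher and all 7 lower genes moved in the same direction in the other cells of these libraries, with Phlda2 as the exception and Crabp2 nearly level there. Between neighbouring doses a 2-fold difference was seen in 1 gene (0.034% of those tested), between 0.75 and 3 ng/ml. In the other cells, 43 of 3173 genes (1.36%) were higher and 126 (3.97%) lower over the same range. The other cells are a mixture of populations and the members are 1 gated population, so that these counts are set side by side without a comparison. Of the single gated populations, the Cdx2-positive E-cadherin-positive cells had 24 higher (0.79%) and 25 lower genes (0.823%) and the Tbx6-positive cells 13 (0.422%) and 3 (0.0974%). The T-high cells, with 16 cells in the library without FGF2, had 34 (1.07%) and 22 (0.694%).

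Rnf213, a large ubiquitin ligase gene, had the largest ratio. It was at 13.7, 20.4, 36.8 and 70.5 CPM in members, a ratio of 5.16 (4.28 to 6.28), and was at 12.3, 21.6, 45.9 and 73.6 CPM in other cells. Fn1 (fibronectin), an extracellular matrix gene of migrating mesoderm, was at 82.8, 95.4, 175 and 325 CPM in members, a ratio of 3.92 (3.62 to 4.24). Unlike Rnf213, Fn1 in the other cells was high without FGF2 as well, at 334, 204, 280 and 398 CPM. The transcriptional coactivator gene Cited1 was at 43.9, 57.3, 116 and 168 CPM in members, and the imprinted growth regulator Phlda2 at 211, 317, 452 and 642 CPM. Fgf8, a ligand of the streak and caudal epiblast, was at 57.8, 88.4, 121 and 133 CPM in members, a ratio of 2.30 (2.08 to 2.54), and at 17.96, 67.4, 164 and 165 CPM in other cells. Grsf1, an RNA-binding protein, and Pck2, Mthfd2 and Notch1 were also at least 2-fold higher at 12 ng/ml.

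Sema3a, a guidance ligand, had the smallest ratio. It was at 53.5, 50.9, 33.1 and 12.6 CPM in members, a ratio of 0.235 (0.192 to 0.286), and at 27.0, 30.7, 17.6 and 13.8 CPM in other cells. Mest was at 86.3, 57.7, 44.9 and 33.6 CPM, Tshz1, a zinc finger factor of the trunk, at 68.6, 46.9, 30.2 and 29.7 CPM, and Gas1, a Hedgehog co-receptor, at 50.8, 36.1, 27.3 and 23.8 CPM. In all of these the lowest level was at 12 ng/ml. Crabp2 was level at 216 and 221 CPM in the first 2 libraries and 100 CPM at 12 ng/ml, a ratio of 0.463 (0.429 to 0.499), while in the other cells it was at 78.3 and 77.9 CPM at the ends. Below the level limit, the streak factor gene Mixl1 was at 3.63, 7.94, 15.0 and 25.6 CPM in members and the paraxial receptor gene Pdgfra at 5.66, 4.90, 9.18 and 13.1 CPM. Prrx1, a factor of limb and lateral mesoderm, was at 10.1, 5.49, 2.67 and 1.35 CPM, Gata6, a factor of proximal mesoderm and endoderm, at 10.03, 5.54, 4.001 and 1.84 CPM, and Irx3, of the neural plate and posterior mesoderm, at 24.97, 19.7, 10.7 and 6.28 CPM.

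**Figure D4:**
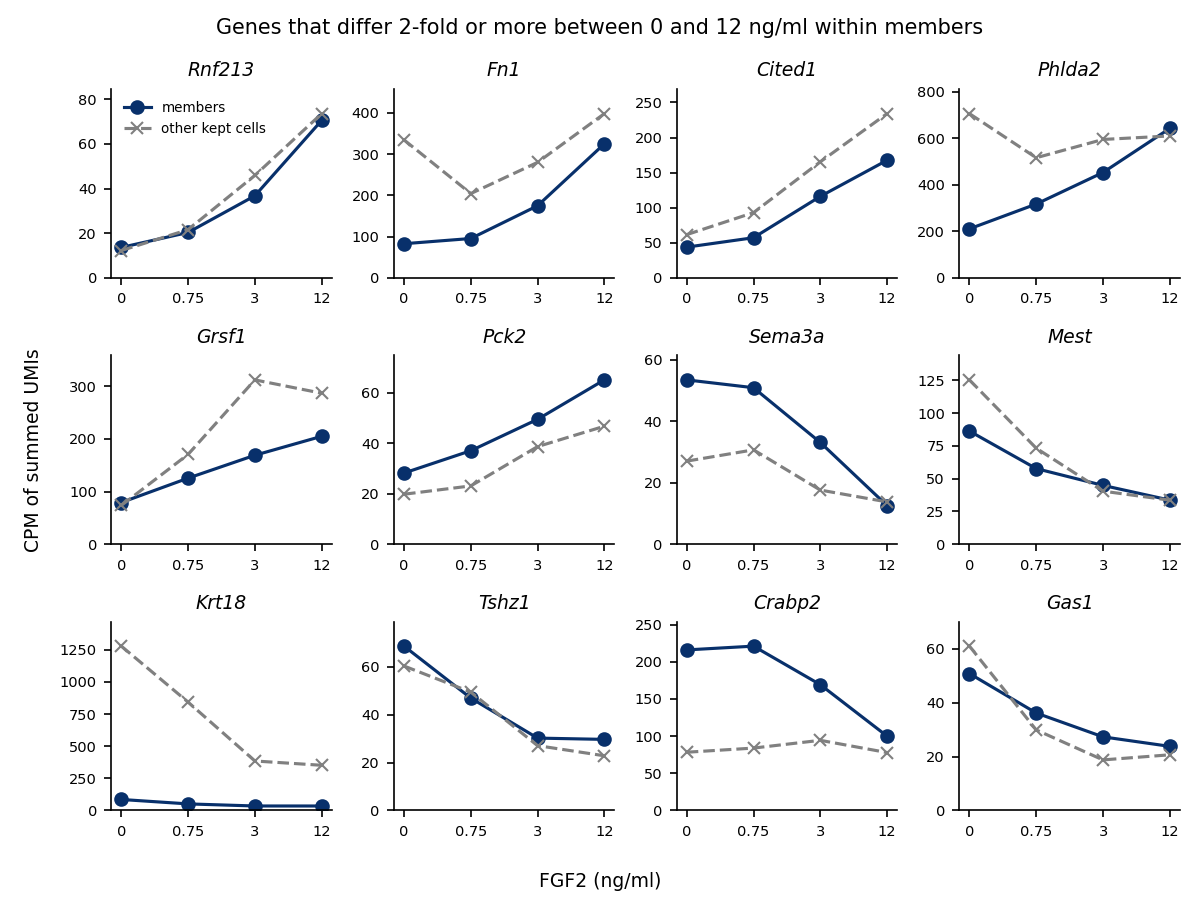
Levels (y axis of each panel, CPM of summed UMIs, from 0) by FGF2 dose (x axis, ng/ml, evenly spaced categories) of the 6 genes with the largest and the 6 with the smallest ratio from no FGF2 to 12 ng/ml among the genes called within members, in members (filled circles) and in other kept cells (crosses), 1 library per dose. Rnf213 has nearly the same course in both, whereas Phlda2 goes from 211 to 642 CPM in members and from 705 to 609 CPM in other cells.

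The members were not uniform, and the first split was by T. A share of 44.9% of members had no T UMI without FGF2 (39.2% to 50.7%), and 32.3%, 23.7% and 12.2% had none at the higher doses. As T is a gate gene the level follows from the gate in part, and a class cut from a count is a range and not a cell type. Of 5442 genes, 4 (0.0735%) were higher in members with no T in all libraries, namely Krt8, Krt18, Peg10 and Mest, and 18 (0.331%) were lower. Cyp26a1, Rspo3, Fgf8, Fgf17 and the collagen gene Col2a1 were among the lower genes. Rspo3 reached 20 CPM in all libraries in both kinds of member. Genes such as Cyp26a1, Fgf8, Fgf17 and Col2a1 reached 20 CPM in all libraries in members with T only. Peg10 reached it in members with no T only. Such differences were in part set by the level limit. Cyp26a1 had a geometric mean ratio of 0.199 between members without and with T, Rspo3 0.244 and Fgf8 0.310. No Hox gene was called among 19 tested in this split.

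A second split was by Hand1, a basic helix-loop-helix factor of lateral and extraembryonic mesoderm, and it was chosen after the values were seen. At least 3 Hand1 UMIs were found in 58, 82, 40 and 53 members along the doses, or 19.1%, 12.5%, 8.71% and 14.0% of members, whereas 61.4%, 70.9%, 74.1% and 66.4% had none. Hand1-high members were deeper, with median totals of 32389, 29240, 31866 and 32169 UMIs against 28126, 26602, 26194 and 24458 UMIs. Of 5447 genes, 38 (0.698%) were higher in Hand1-high members in all libraries and 34 (0.624%) were lower.

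Foxf1, a forkhead factor of lateral and extraembryonic mesoderm, was at 49.9, 45.1, 44.8 and 28.9 CPM in Hand1-high members and at 1.41, 1.07, 2.64 and 5.43 CPM in members with no Hand1. Bmp4 was at 84.0, 49.2, 52.2 and 54.5 CPM against 23.7, 21.97, 19.4 and 23.1 CPM, and the actin-binding tropomyosin gene Tpm1 at 906, 733, 799 and 1257 CPM against 316, 229, 244 and 439 CPM. The mesenchymal filament gene Vim, the fibronectin gene Fn1 and the BMP feedback genes Smad7 and Bambi were higher too. Hand1 made the split, and Foxf1 and Bmp4 reached 20 CPM in all libraries in Hand1-high members only, so that a difference of the 3 lateral mesoderm genes tested was set by the level limit. Of 7 BMP targets that reached it in both kinds of member, 2 were higher (Smad7 and Bambi), against 0.698% of all genes tested. Gata4 was at or below 1.22 CPM and Tbx4 at 0 in Hand1-high members.

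Among the 34 genes lower in Hand1-high members were 4 of the 9 tested genes of the caudal epiblast and neuromesodermal precursor list, Epha5, Sox2, Nkx1-2 and Gdf11 (0.624% of all genes tested were lower). All 4 reached 20 CPM in all libraries in members with no Hand1 only, so that this count is a description. Most of the 34 were on no list, among them the glucose transporter gene Slc2a1 and the glycine decarboxylase gene Gldc. Epha5 was at 4.94, 7.32, 10.4 and 2.27 CPM in Hand1-high members and at 62.6, 78.1, 86.0 and 68.5 CPM in members with no Hand1. Sox2 was at 10.9, 17.1, 10.4 and 6.81 CPM against 67.5, 47.3, 37.2 and 25.9 CPM, and Nkx1-2 at 12.4, 12.2, 9.70 and 9.65 CPM against 39.6, 40.4, 43.0 and 27.2 CPM. The forkhead gene Foxb1 was at 19.3, 20.7, 30.6 and 13.1 CPM against 93.3, 116, 114 and 80.4 CPM, and Hes7, Crabp2, Ncam1 and Sp8 were lower as well. Foxb1, Sp8 and Gldc also reached 20 CPM in all libraries in members with no Hand1 only. Of the 18 genes that were higher in members than in other cells, 4 were lower in Hand1-high members (Epha5, Trim2, Hoxa7 and Hoxc4). Epha5 and Trim2 reached 20 CPM in all libraries in members with no Hand1 only, so that no share is set beside this count. Cdx2, which the gate fixed to at least 3 UMIs in each member, was at 199, 237, 240 and 239 CPM in Hand1-high members and at 261, 273, 283 and 266 CPM in members with no Hand1.

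A UMI of Sox2 was found in 24.1% of Hand1-high members without FGF2 (14 of 58 cells, 13.9% to 37.2%) and in 64.5% of members with no Hand1 (120 of 186 cells, 57.2% to 71.4%). At 0.75 ng/ml the shares were 28.0% (18.7% to 39.1%) and 49.8% (45.2% to 54.4%), at 3 ng/ml 32.5% (18.6% to 49.1%) and 45.3% (39.9% to 50.8%), and at 12 ng/ml 16.98% (8.07% to 29.8%) and 35.1% (29.2% to 41.3%). Thinned to 10000 UMIs per cell, they were 13.8% and 38.4% without FGF2, and 7.55% and 21.5% at 12 ng/ml. The share was lower in Hand1-high members in each library, and the intervals were apart without FGF2 and at 0.75 ng/ml but overlapped at 3 and 12 ng/ml. No test of the difference was run. Among 18 Hox genes tested, Hoxa7 and Hoxc4 were lower in Hand1-high members, where 0.624% of all genes tested were lower. When members with any Hand1 UMI were left out, a choice made after seeing the data, 37 genes were higher in members than in other cells in place of 18, of which 15 were shared.

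**Figure D5:**
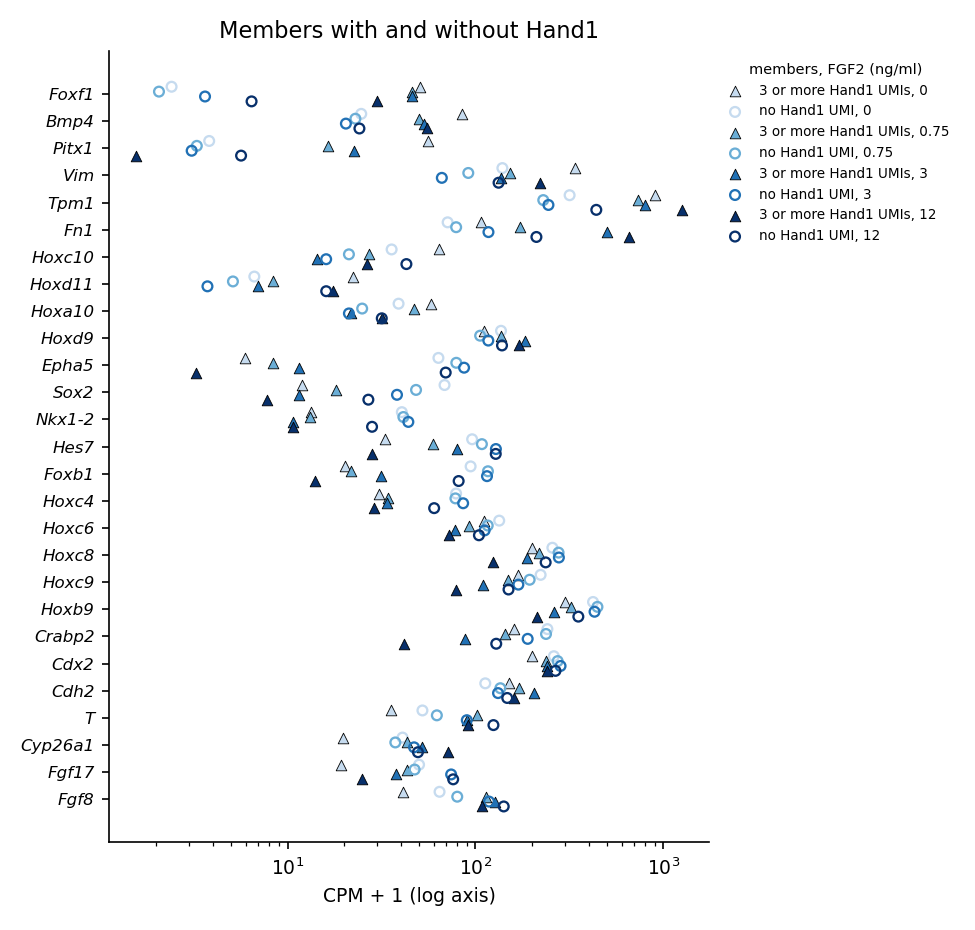
Levels (x axis, CPM + 1, log scale) of 27 genes (y axis) chosen after their values were seen, in members with at least 3 Hand1 UMIs (triangles) and in members with no Hand1 UMI (open circles), coloured by FGF2 dose, 1 library each. Foxf1 and Bmp4 lie to the right in Hand1-high members in all 4 libraries, Epha5, Sox2 and Nkx1-2 lie to the left, and Cdx2 is a gate gene.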

How the data were processed

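Single-cell RNA libraries (10x Genomics 3′ kit v3.1, 1 per condition) were analyzed. The deposited matrices give UMI counts as the authors made them, not normalized, with Cell Ranger on mm10. The matrix headers name version 5.0.1 and the methods an earlier one, and whether strand was used in counting is not given in the sources used here. Barcodes were kept, following the study, from 2500 genes upward and up to 10% mitochondrial UMIs. Kept cells held 56812075, 81538748, 64607114 and 70776993 UMIs at 0, 0.75, 3 and 12 ng/ml FGF2. No doublet caller was run.

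UMIs were summed over each population and divided by its total (CPM). Genes were called by size (at least 20 CPM and a 1.5-fold ratio in all 4 libraries, or 50 CPM and 2-fold between doses), with gate genes and mitochondrial genes left out and a count of 0 replaced by 3 in ratios. Intervals are exact binomial (shares), exact conditional (ratios) or by Newcombe's method (change in share), at 95%. UMIs are molecules, but cells of a library are not replicates. The members and gene lists were chosen with earlier results of these data known. Genes were named by rule (the 12 most extreme each way against other cells, 6 each way by dose, 5 each way per population, and up to 4 per list), and others after their values were seen. One gene that the rule named is not reported here. Positions are from GENCODE vM21 (GRCm38), promoters from RefSeq. Python 3.11.15, NumPy 2.4.6, SciPy 1.17.1 and, for TMM factors only, edgeR 4.0.16 were used.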

Additional observations from a re-analysis of the deposited data

Results flagged for a closer look

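Hand1 had opposite directions at the ends of the dose series. Its level in members was 0.465 of that in the other kept cells without FGF2 and 1.70 of it at 12 ng/ml. In members Hand1 was at 43.7, 34.1, 28.6 and 50.5 CPM along the doses, and in other cells at 94.0, 49.5, 35.6 and 29.7 CPM, so that the level in other cells was lower at each higher dose. The difference between the doses was not tested, since there was 1 library per dose.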

How the results depend on the processing

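The counts of genes depended on the size and level asked for, and also on the cells and libraries used. With a ratio of 2, 2 genes were higher and 57 lower in members than in other cells, and 263, 12 and 39 genes differed from Cdx2-positive E-cadherin-positive, T-high and Tbx6-positive cells. At 50 CPM these numbers were 11, 53, 264, 23 and 30, and at 10 CPM 230 genes were lower. Against other cells with at least 3 Cdx2 UMIs 11 genes were higher, and 37 for members with no Hand1 UMI. Within members, a ratio of 1.5 gave 49 genes higher and 31 lower at 12 ng/ml, 20 CPM gave 47 and 21, and members with no T UMI gave 20 lower. Leaving out each library in turn gave 18 to 42 higher and 128 to 187 lower genes against other cells, and 644 to 756, 52 to 98 and 103 to 140 genes against the 3 populations. The shares followed the gate, and along the doses (0, 0.75, 3, 12 ng/ml) they were 7.86%, 12.5%, 15.2% and 13.2% in thinned cells, 13.4%, 18.6%, 16.5% and 10.9% with 5 Cdx2 UMIs, 14.4%, 20.1%, 18.1% and 13.5% with 2 Cdh2 UMIs, 15.3%, 18.3%, 14.5% and 8.65% with at most 3 T UMIs, and 15.9%, 20.8%, 16.1% and 10.5% with no Tbx6 UMI. With 2 Cdx2 UMIs they were 25.98%, 23.7% and 18.04% with FGF2. The change from no FGF2 to 12 ng/ml was -6.69 points with at most 3 T UMIs, -5.39 with no Tbx6 UMI and 5.32 in thinned cells, where the direction turned. Thinning changes the counts of all gate genes at once, and their parts were not tested apart. Of 111 recomputed values 65 stayed within 1.5 times or within the interval, among them those with TMM scaling, mean CPM per cell, other cells matched in UMI total, at most 5% mitochondrial UMIs and without the top 5% of cells by UMIs.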

Other observations

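Levels of further signaling and mesenchyme genes in the members are given as values. Of these genes Notch1 alone passed 50 CPM and was called along the doses, and Notch1, Dll3, Nrarp, Fgf3 and Snai1 were called lower in members than in Tbx6-positive cells (1.05% of genes tested). Dll3, Fgf3 and Snai1 reached 20 CPM in all libraries in Tbx6-positive cells only. Their difference was thus in part set by the level limit. Fgf3 and Fgf15, ligands of the caudal embryo, were at 6.83, 12.4, 21.3 and 28.8 CPM and at 2.77, 5.49, 12.6 and 16.7 CPM in members along the FGF2 doses. The Notch receptor gene Notch1 was at 30.7, 36.3, 58.8 and 63.9 CPM, the Notch ligand gene Dll3 at 10.9, 14.2, 25.1 and 41.0 CPM and the feedback inhibitor gene Nrarp at 22.4, 26.2, 34.6 and 48.8 CPM. All 5 were lowest in the library without FGF2. The EMT factor genes were not called along the doses. Snai1 was at 3.09, 6.66, 8.79 and 16.3 CPM, Twist1 at 33.6, 22.3, 14.5 and 14.2 CPM and Zeb1 at 25.6, 22.1, 21.3 and 24.9 CPM. The BMP antagonist gene Nog was at 10.9, 8.90, 5.81 and 2.71 CPM in members and at 13.5, 7.20, 5.57 and 4.998 CPM in other cells.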
